A study of Mus musculus with 33 samples.

Results

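Gene expression in the embryonic mouse frontal region was compared between the stages labelled E11 and E11.5 (days of embryonic development), taking every gene of the count table. The comparison used 6 of the 33 libraries of a developmental series, 3 at E11 and 3 at E11.5, chosen by the stage in their labels and column names. The series covers 11 labelled stages from E8.5 to E14.5 with 3 libraries each, made from polyA RNA of the frontal bone of the skull vault. Both groups carry that one tissue label, and the labels give neither strain, genotype, sex, treatment nor the number of embryos in a library. In all that follows E11 and E11.5 are the names on the libraries. The title of the series concerns citrate carried by extracellular vesicles and the mineralization of bone.

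The frontal bone is a flat bone that forms without a cartilage model: mesenchyme beneath the surface ectoderm, much of it from the neural crest, condenses and turns into osteoblasts. Runx2 starts that programme, Sp7 (osterix) acts after it, and bone sialoprotein, encoded by Ibsp, is among the proteins of the mineralizing matrix. In the same head the forebrain, its choroid plexus, the eye, the skin and the blood differentiate at their own pace, so that a dissection of the frontal region can hold RNA from any of them.

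Totals of the 6 columns ran from 14988896 to 18310604 counts. Values are CPM, counts scaled to a common library size with edgeR's TMM factors, given for each library (columns a, b and c) or as mean ± SD over n = 3. The 3 libraries of a stage were much alike (r of log2 CPM 0.989 to 0.990 across genes in each pair), and the labels do not say that they came from separate embryos. P-values therefore measure only the spread between libraries of the same stage, which may be technical. That spread was estimated over all 33 libraries and not from these 6 alone. The summed CPM of Kdm5d, Eif2s3y, Ddx3y and Uty, all on the Y chromosome, was 109 to 123 at E11 and 179 to 183 at E11.5, and Xist stood at 1625 to 1856 and 1099 to 1139. Xist over that sum was 13.9 to 15.2 at E11 and 6.13 to 6.27 at E11.5, without overlap. All 6 libraries thus held Xist beside Y-linked RNA, and the balance differed between the stages. The mix of sexes behind it was not tested. Calls of Kdm5d, Uty and Xist were each lost when single libraries were left out, while those of Eif2s3y and Ddx3y were kept. Libraries labelled E12 differed widely among themselves: cytosolic ribosomal protein genes took between 3.96% and 8.04% of their counts, against 2.23% to 2.50% in the 6 libraries compared. For genes that rise over the series, those labelled E11.5 lay further along than those labelled E12 and E12.5, with the values given at the end.

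Genes of the osteoblast list were present with markers of neighbouring tissues. Osteoblast genes summed to 1303 to 1340.2 CPM at E11 and 1669.8 to 1727 at E11.5 over 22 genes. That sum includes Col1a1, a collagen chain of bone and dermis, and is no measure of osteoblasts alone. Ibsp, Sp7 and Phospho1, with values below, were low or nearly absent at E11. The late markers Bglap, which encodes osteocalcin, and Dmp1 did not exceed 1.16 CPM in any of the 6 libraries. Neuronal genes summed to 3622 to 3652 and 3830.5 to 3854 CPM over 19 genes. The libraries thus hold brain RNA at both stages, and in bulk RNA fewer cells of a type and less RNA per cell cannot be told apart.

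Of 20073 genes tested, 2154 (10.7%) rose and 2459 (12.3%) fell from E11 to E11.5 at an adjusted p under 0.05, together 23% (edgeR's quasi-likelihood test with Benjamini-Hochberg adjustment). Changes of at least 2-fold were more often rises, with 930 genes (4.63%) against 360 (1.79%). The median log2 fold change of all tested genes was -0.05. Scaling by totals alone moved it to 0.07 and the split of calls to 2799 higher and 1235 lower, and DESeq2's size factors gave 2489 and 1787. With only the 6 libraries in the fit, 3985 genes rose and 3735 fell. In 9890 genes (49.3%) the stages did not overlap. Adjusted p-values below come from this fit, and log2 fold changes (E11.5 minus E11) are given ± an approximate standard error.

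The 12 largest rises were mostly of genes known from bone, cartilage, skin and brain, and the 12 largest falls mostly of genes known from lens, eye, midbrain and red cells. Ibsp (ENSMUSG00000029306, GRCm38 chr5:104299171-104311469, plus strand) led the rises. It stood at 0, 0 and 0.158 CPM at E11 and 14.52, 15.8 and 15.003 at E11.5. All E11.5 libraries held it, against 3 counts at E11 in all. The ratio was 285 (95% interval 97.1 to 1384), with an interval for counting error only, at an adjusted p of 9.96e-14. Cryaa, which encodes the lens protein alpha-A-crystallin (ENSMUSG00000024041, chr17:31677807-31681733, plus strand), led the falls at 34.8, 40.3 and 35.2 CPM at E11 and 0, 0.101 and 0 at E11.5. Only 2 counts remained over the E11.5 libraries, so that E11 was higher by a ratio of 1029 (95% interval 285 to 8504), at an adjusted p of 1.41e-15. Cryba1, the gene of another lens crystallin (ENSMUSG00000000724, chr11:77718615-77725283, minus strand), was at 22.3, 25.1 and 22.3 CPM at E11 and 0.116, 0.202 and 0 at E11.5 and fell with it, at a log2 fold change of -7.67 ± 0.49, adjusted p = 8.44e-13. Lack of overlap between the stages was a condition for the 12 largest rises and falls, which include these 3 genes.

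**Figure D1:**
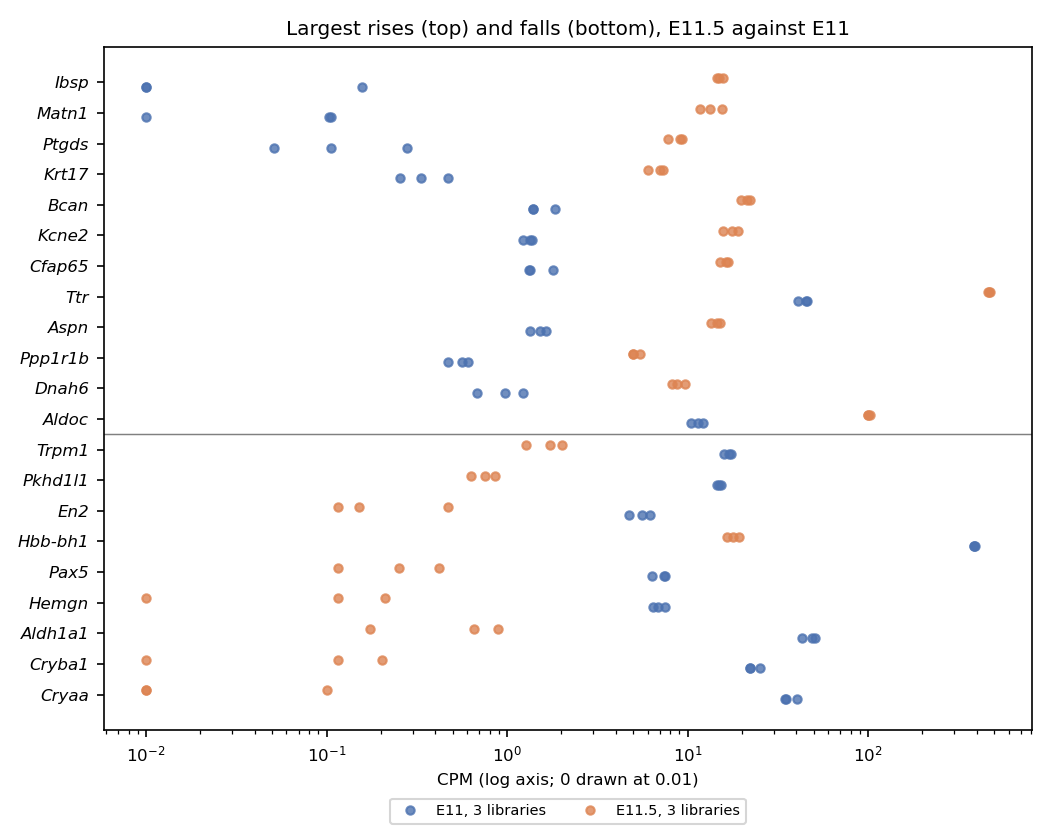
Levels of the 12 largest rises and of 9 of the 12 largest falls in each of the 6 libraries, in CPM on a log axis, with a level of 0 drawn at 0.01. Blue points are E11 and orange points E11.5. Genes with overlapping groups were left out by the rule of choice.

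The promoters of these 3 genes are shown because each gene was near 0 at one stage and present at the other, and because the crystallin genes fell together. Each is the 250 bases before the gene's start, 5′ to 3′ on the gene's strand, from RefSeq on GRCm38.p6. The spans are chr17:31677681-31677930 (plus) for Cryaa, chr11:77725294-77725543 (minus) for Cryba1 and chr5:104299037-104299286 (plus) for Ibsp. Capitals in the crystallin promoters mark TGCTGA, the core letters bound by the MAF factors of the lens. In the Ibsp promoter they mark ATTGG, the reverse complement of the CCAAT box.
Cryaa: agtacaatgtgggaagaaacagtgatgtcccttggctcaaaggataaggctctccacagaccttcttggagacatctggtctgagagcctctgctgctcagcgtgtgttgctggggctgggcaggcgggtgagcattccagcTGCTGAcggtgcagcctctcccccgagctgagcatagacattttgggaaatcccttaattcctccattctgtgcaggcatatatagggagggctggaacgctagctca
Cryba1: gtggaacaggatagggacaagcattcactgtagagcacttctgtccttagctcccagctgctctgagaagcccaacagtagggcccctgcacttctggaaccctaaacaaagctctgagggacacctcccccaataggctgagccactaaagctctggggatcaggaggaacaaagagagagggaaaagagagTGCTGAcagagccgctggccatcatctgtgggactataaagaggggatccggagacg
Ibsp: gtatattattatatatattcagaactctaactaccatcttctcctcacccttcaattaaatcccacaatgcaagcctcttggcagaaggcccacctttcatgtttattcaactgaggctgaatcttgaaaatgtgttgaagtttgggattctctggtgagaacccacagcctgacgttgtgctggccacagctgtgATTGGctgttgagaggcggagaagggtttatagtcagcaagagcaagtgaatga
TGCTGA begins 108 bases before the start of Cryaa and 57 bases before that of Cryba1. Either strand of it (TGCTGA or TCAGCA) is found in 16.1% of 32851 RefSeq promoters of this length. ATTGG begins 54 bases before the start of Ibsp, and CCAAT or ATTGG is found in 33.8% of them. The RefSeq starts of Cryaa and Ibsp lie inside the wider gene spans given above, which are from GENCODE. A match describes the letters of the window and not a site in use.

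Bone genes rose in part. Of 22 osteoblast genes tested, 9 rose and 0 fell, against 10.7% and 12.3% of all genes. Their median log2 fold change was 0.40 against -0.05 for all genes tested. Sp7, the osteoblast transcription factor, stood at 0.873, 1.22 and 1.16 CPM at E11 and 5.50, 5.19 and 6.26 at E11.5. Every E11.5 library exceeded every E11 library, and the log2 fold change was 2.38 ± 0.21, adjusted p = 6.66e-10. Runx2, which acts before Sp7, was at 12.48, 10.4 and 10.47 CPM at E11 and 14.3, 12.9 and 10.6 at E11.5. The stages overlapped for it (log2 fold change 0.18 ± 0.15, adjusted p = 0.433).

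Matrix and mineral genes of the osteoblast list also differed among themselves. Col1a1, the main collagen chain of bone and dermis, stood at 226, 240.2 and 241 CPM at E11 and 427, 428 and 458 at E11.5, higher in all E11.5 libraries (log2 fold change 0.89 ± 0.15, adjusted p = 6.52e-05). Spp1, which encodes osteopontin, was at 3.08, 2.27 and 3.74 CPM at E11 and 6.02, 6.81 and 4.95 at E11.5, also without overlap (0.96 ± 0.26, adjusted p = 0.00685). Leaving out the E11 library b, the lowest of its stage, took Spp1 to 0.79 with an adjusted p of 0.0526. Phospho1, a phosphatase that frees phosphate in matrix vesicles, rose from 0.106 ± 0.0042 to 0.557 ± 0.12 CPM (2.31 ± 0.54, adjusted p = 0.00201), and Ifitm5, an osteoblast membrane protein, from 0.870 ± 0.12 to 1.95 ± 0.32 (1.16 ± 0.32, adjusted p = 0.00719). Alpl, the gene of alkaline phosphatase, did not pass at 10.9 ± 0.25 at E11 and 12.53 ± 1.3 at E11.5 (0.20 ± 0.12, adjusted p = 0.251). Nor did the late genes Bglap (-0.42 ± 0.52, adjusted p = 0.618), Dmp1 (-0.04 ± 0.60, adjusted p = 0.973) and Phex (0.61 ± 0.37, adjusted p = 0.261).

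Among 13 regulators of phosphate and mineral, 6 rose and 0 fell (median 0.48), against 10.7% and 12.3% of all genes. Mgp, which encodes an inhibitor of calcification, stood at 3.24, 2.55 and 1.89 CPM at E11 and 13.0, 13.8 and 13.6 at E11.5. It was higher in each E11.5 library (2.39 ± 0.25, adjusted p = 2.43e-08), as was Enpp1, which makes pyrophosphate, at 3.80 ± 0.36 at E11 and 7.90 ± 1.0 at E11.5 (1.05 ± 0.16, adjusted p = 1.16e-05). Gas6, a secreted protein related to those that bind mineral through modified glutamate, rose at 0.89 ± 0.11, adjusted p = 3.01e-07. The genes that rose thus include Mgp and Enpp1 and, on the side of mineral formation, Phospho1, given above at low CPM. Alpl, Phex and Dmp1, also in this list, did not pass.

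Fibrous matrix had the widest rise of the bone and connective lists. Of 26 genes, 20 rose and 0 fell, against 10.7% of all genes, and the median was 0.82. Dcn, which encodes the small proteoglycan decorin, stood at 20.9, 19.1 and 19.3 CPM at E11 and 88.3, 95.7 and 82.8 at E11.5. The E11.5 libraries lay well above those of E11 (2.17 ± 0.10, adjusted p = 3.55e-16). Lox, the enzyme that cross-links collagen, was at 31.8, 29.2 and 34.3 CPM at E11 and 106, 98.0 and 99.2 at E11.5, again without overlap (1.67 ± 0.12, adjusted p = 1.22e-11). Aspn, the gene of asporin, rose from 1.501 ± 0.16 to 14.4 ± 0.85 CPM (3.25 ± 0.27, adjusted p = 2.69e-10), and Dpt, which encodes dermatopontin, from 5 counts at E11 to 63 (3.56 ± 0.59, adjusted p = 3.45e-05).

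Cartilage genes moved in the same direction in most cases, with 12 of 19 higher and 1 lower, against 10.7% and 12.3% of all genes. Their median was 0.83. Matn1, the cartilage matrix protein matrilin 1 (ENSMUSG00000040533, chr4:130944385-130955475), stood at 0.103, 0 and 0.105 CPM at E11 and 15.4, 13.3 and 11.7 at E11.5. It was all but absent at E11, with 4 counts, and the log2 fold change was 7.43 ± 0.43, adjusted p = 2.75e-13. Acan, the gene of aggrecan, was at 1.34, 1.55 and 1.26 CPM at E11 and 8.27, 8.52 and 7.53 at E11.5 and rose without overlap (2.55 ± 0.21, adjusted p = 1.59e-10). Matn4 rose at 1.73 ± 0.19, adjusted p = 6.55e-08. Snorc, a small cartilage proteoglycan, had 1 count at E11 and 14 at E11.5, a ratio of 14.1 (95% interval 2.14 to 596) with an interval for counting error only. The member that fell, named after its value was seen, was Sox9, the transcription factor that starts cartilage, at 79.7, 85.4 and 80.6 CPM at E11 and 59.5, 57.1 and 61.9 at E11.5 (-0.46 ± 0.10, adjusted p = 0.000586).

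In the tendon list 2 of 5 rose and 0 fell, against 10.7% and 12.3% of all genes. The 2 were Tnmd, a marker of tendon cells (1.23 ± 0.18, adjusted p = 1.56e-05), and Thbs4, a thrombospondin of tendon matrix (0.61 ± 0.19, adjusted p = 0.0197). Leaving out any single library other than E11.5 b left Tnmd alone, with adjusted p-values for Thbs4 from 0.0533 to 0.0948. The tendon transcription factors Scx (-0.10 ± 0.27, adjusted p = 0.851) and Mkx (-0.36 ± 0.15, adjusted p = 0.0812) and the proteoglycan gene Kera (0.75 ± 0.43, adjusted p = 0.229) did not pass. Of 21 skeletal muscle genes, 3 rose and 1 fell, against 10.7% and 12.3% of all genes, and 7 rose with only the 6 libraries in the fit. Myh8, a myosin of developing fibres, stood at 1.08, 1.05 and 0.790 CPM at E11 and 5.61, 6.05 and 5.21 at E11.5, and all E11.5 libraries exceeded E11 (2.52 ± 0.22, adjusted p = 2.64e-09). Acta1, skeletal actin, rose at 1.96 ± 0.32, adjusted p = 2.93e-05 and Myh3, embryonic myosin, at 0.53 ± 0.15, adjusted p = 0.0111. Pax7, a factor of muscle progenitors that also marks dorsal midbrain, fell from 8.496 ± 0.86 to 2.24 ± 0.35 CPM (-1.92 ± 0.17, adjusted p = 4.14e-10).

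Skin keratins were higher at E11.5. Of 16 epidermal genes, 7 rose and 0 fell (median 0.38), against 10.7% and 12.3% of all genes. Krt5, the basal keratin, stood at 17.7, 16.6 and 17.8 CPM at E11 and 62.4, 64.8 and 61.6 at E11.5. Each E11.5 library lay above each E11 library (1.86 ± 0.20, adjusted p = 2.87e-08), and its partner Krt14 (1.61 ± 0.17, adjusted p = 2.7e-08) and Krt15 (1.66 ± 0.17, adjusted p = 2.17e-08) rose as well. Krt17, a keratin of periderm and skin appendages, was at 0.257, 0.333 and 0.474 CPM at E11 and 7.35, 7.01 and 6.05 at E11.5 and among the 12 largest rises (4.24 ± 0.38, adjusted p = 2.11e-09). Krtdap, of differentiating epidermis, had 0 counts at E11 and 7 at E11.5, at least 2.35-fold higher when E11 is set to 3 counts over the group.

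Vessel and blood cell markers went different ways. In the endothelial list 6 of 11 rose and 0 fell (median 0.37), against 10.7% and 12.3% of all genes. Among them was Cldn5, a tight junction protein of brain vessels, at 19.9, 19.4 and 19.3 CPM at E11 and 32.9, 32.8 and 39.1 at E11.5. No E11 library reached an E11.5 library (0.84 ± 0.21, adjusted p = 0.00319). Eng, Egfl7 and Esam rose by less, at 0.68 ± 0.10, 0.48 ± 0.15 and 0.45 ± 0.14. The endothelial count was 3 without the E11.5 library c, 4 without any other single library and 9 with only the 6 libraries in the fit. Of 8 genes of mural and smooth muscle cells 5 rose and 0 fell (median 0.52), against 10.7% and 12.3% of all genes. Of these 8, 3 rose without the E11 library c or the E11.5 library a or b. Rgs5, a pericyte gene, led at 19.1, 15.2 and 20.6 CPM at E11 and 49.6, 49.2 and 50.5 at E11.5, with the stages well apart (1.44 ± 0.14, adjusted p = 2.67e-09). Cspg4 (0.99 ± 0.17), Myh11 (0.996 ± 0.29), Kcnj8 (0.71 ± 0.20) and Acta2 (0.34 ± 0.12) rose too, while Pdgfrb (0.12 ± 0.10, adjusted p = 0.438), Tagln (-0.13 ± 0.17, adjusted p = 0.628) and Cnn1 (-0.52 ± 0.33, adjusted p = 0.282) did not pass. Macrophage genes rose in 3 of 12 cases and fell in 0, against 10.7% and 12.3% of all genes: Lyz2, Cd68 and Mrc1, at 0.46 ± 0.17, 0.41 ± 0.12 and 0.41 ± 0.11. The macrophage count was 1 without the E11 library a or b or the E11.5 library c, and 6 with only the 6 libraries in the fit.

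Every red cell gene outside the globin family fell, 9 of 9, against 12.3% of all genes, and their median was -1.99. Hemgn, a nuclear protein of erythroid cells, stood at 6.88, 6.44 and 7.53 CPM at E11 and 0.116, 0 and 0.211 at E11.5. The E11.5 libraries held next to none of it (-5.93 ± 0.28, adjusted p = 1.08e-15). Slc4a1, the anion exchanger band 3, was at 106, 108 and 109.6 CPM at E11 and 17.5, 19.4 and 17.1 at E11.5 and fell without overlap (-2.58 ± 0.14, adjusted p = 1.49e-14). Epb42, a protein of the red cell membrane skeleton, fell at -2.72 ± 0.22, adjusted p = 7.37e-11, and Klf1, the factor that turns on adult globin, at -2.07 ± 0.24, adjusted p = 1.56e-07.

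Globins separated into embryonic and adult kinds. Hbb-bh1, an early embryonic beta-like globin (ENSMUSG00000052217, chr7:103841637-103843164), stood at 387, 392 and 387 CPM at E11 and 16.6, 19.3 and 17.8 at E11.5. It dropped to a small part of its level in every E11.5 library (-4.44 ± 0.18, adjusted p = 6.91e-17). Hba-x, the embryonic alpha-like globin, was at 953, 1078 and 990.0 CPM at E11 and 119.6, 119 and 128 at E11.5 (-3.04 ± 0.19, adjusted p = 2.75e-13), and Hbb-y, the other embryonic beta-like globin, at 3438, 3766 and 3639 CPM at E11 and 1288, 1338 and 1360.2 at E11.5 (-1.44 ± 0.21, adjusted p = 7.41e-06). Both fell without overlap. Hbb-bs, an adult beta globin, rose in all E11.5 libraries from 73.6 ± 3.7 to 414 ± 18.4 CPM (2.49 ± 0.25, adjusted p = 9.13e-09). Hbb-bt (0.62 ± 0.26, adjusted p = 0.0791), Hba-a1 (-0.31 ± 0.25, adjusted p = 0.41) and Hba-a2 (0.05 ± 0.37, adjusted p = 0.947) did not pass, and counts of the near-identical pairs Hba-a1 and Hba-a2, and Hbb-bs and Hbb-bt, may be split by the authors' counting. The ratio of Hbb-bh1 to Hbb-y, which does not depend on how much blood a library holds, was 0.108 ± 0.0044 at E11 and 0.0135 ± 0.00083 at E11.5.

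**Figure D2:**
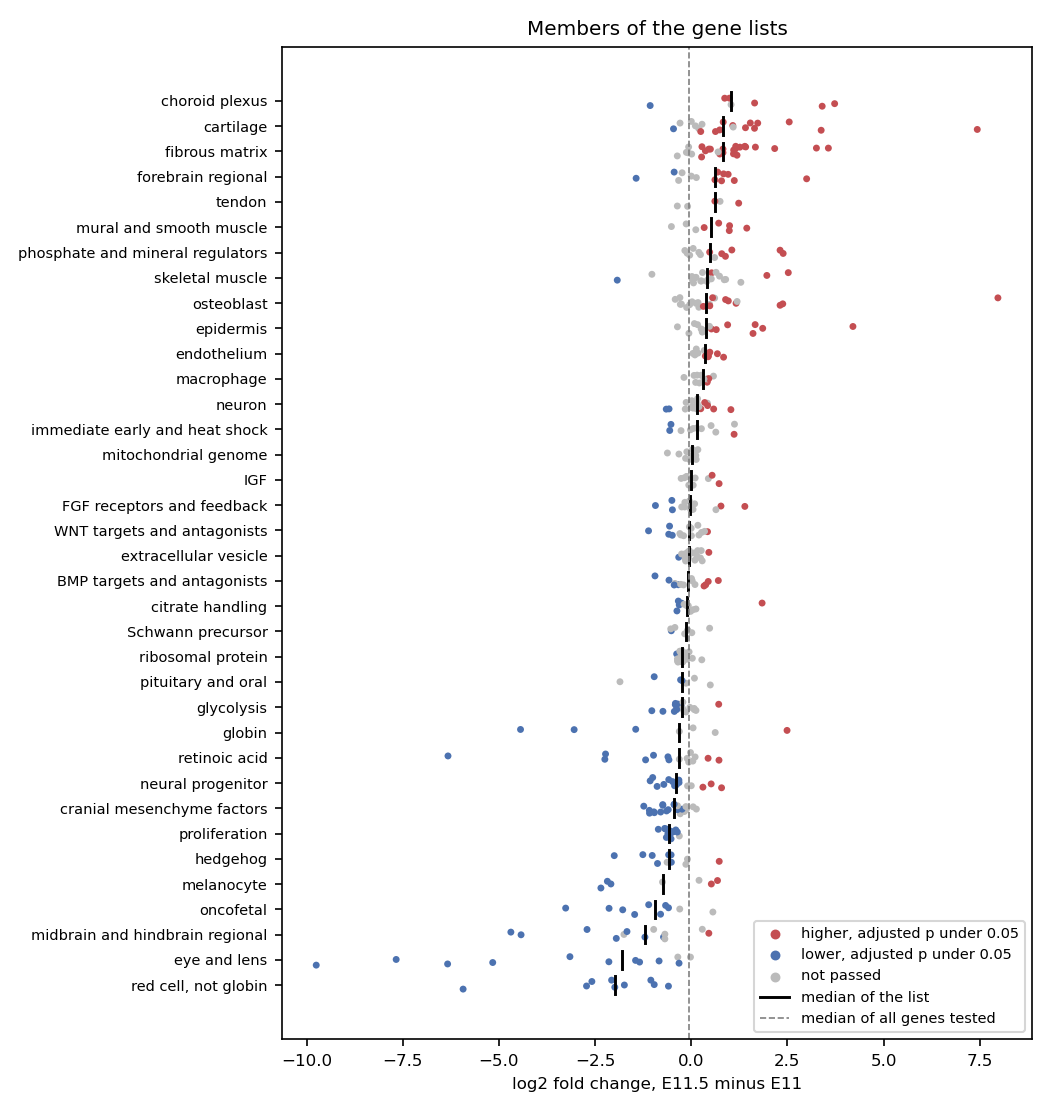
Log2 fold change (E11.5 minus E11) of each tested member of 36 gene lists, ordered by the list's median. Red points rose and blue points fell at an adjusted p under 0.05, grey points did not pass, black bars are list medians and the dashed line is the median of all 20073 genes, -0.05.

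Brain genes differed by region, with exceptions in both regional lists. Of 13 forebrain genes 7 rose and 2 fell (median 0.62), whereas of 13 midbrain and hindbrain genes 1 rose and 7 fell (median -1.20). Of all genes, 10.7% rose and 12.3% fell. In the midbrain and hindbrain list 0 rose without the E11 library c or the E11.5 library a. Neurod6, a factor of young cortical neurons, stood at 14.49, 13.2 and 14.8 CPM at E11 and 118, 115 and 106 at E11.5. The E11.5 libraries lay far above E11 (2.999 ± 0.14, adjusted p = 1.15e-14). Eomes, of cortical intermediate progenitors, rose at 1.12 ± 0.11, adjusted p = 2.25e-08 and Emx1, of the dorsal telencephalon, at 0.96 ± 0.14, adjusted p = 3.92e-06. Gsx2, of the ventral telencephalon, fell from 8.15 ± 0.92 to 3.01 ± 0.24 CPM (-1.43 ± 0.22, adjusted p = 1.42e-05), and Dlx2, named after its value was seen, at -0.44 ± 0.11, adjusted p = 0.00231.

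En2 and Pax5, factors of the midbrain and its border with the hindbrain, were nearly gone at E11.5. En2 stood at 5.599, 4.72 and 6.16 CPM at E11 and 0.116, 0.151 and 0.474 at E11.5 and Pax5 at 7.50, 7.38 and 6.32 CPM at E11 and 0.116, 0.252 and 0.421 at E11.5. For both the stages were fully apart, with log2 fold changes of -4.42 ± 0.30, adjusted p = 1.97e-12 for En2 and -4.69 ± 0.32, adjusted p = 2.26e-12 for Pax5. Pax2, of the same border, fell at -2.71 ± 0.25, adjusted p = 2.59e-09.

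Choroid plexus genes, from the tissue that secretes the fluid of the brain ventricles, rose in 5 of 7 cases, against 10.7% of all genes. Ttr, the carrier of thyroid hormone made there, stood at 40.9, 45.9 and 45.4 CPM at E11 and 459.8, 472 and 466 at E11.5. The E11.5 libraries stood far above those of E11 (3.40 ± 0.20, adjusted p = 3.6e-13). Kcne2, a potassium channel subunit, was at 1.23, 1.33 and 1.37 CPM at E11 and 17.5, 15.8 and 19.003 at E11.5 and rose without overlap (3.73 ± 0.26, adjusted p = 3.72e-12). Clic6 rose at 1.65 ± 0.14, adjusted p = 2.02e-10, Folr1, a folate receptor, at 0.99 ± 0.17, adjusted p = 4.78e-05, and Sostdc1, a secreted BMP and WNT antagonist, at 0.87 ± 0.15, adjusted p = 8.52e-05. Otx2, also a factor of the early fore- and midbrain, fell (-1.07 ± 0.08, adjusted p = 3.74e-11), and Kl did not pass (1.03 ± 0.45, adjusted p = 0.0981). Ttr is also made by liver and yolk sac, whose list held 1 further gene that rose, Trf, the gene of transferrin (0.81 ± 0.13, adjusted p = 1.66e-05). Other genes of that list did not exceed 1.70 CPM in any of the 6 libraries, and Alb and Afp had too few counts to be tested.

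Progenitor genes of the nervous system mostly fell, 10 of 15, while 3 rose (median -0.39), against 12.3% and 10.7% of all genes. Nes, which encodes nestin, stood at 778, 805 and 774 CPM at E11 and 425, 432 and 417 at E11.5. All E11.5 libraries were lower (-0.89 ± 0.07, adjusted p = 9.39e-11), as they were for the Notch target Hes5 (-1.002 ± 0.16, adjusted p = 2.23e-05). Scaling by totals left 6 of the falls. Lhx2 and Slc1a3, named after their values were seen, were among the 3 that rose. Of 19 neuron genes, 5 rose and 2 fell (median 0.14), against 10.7% and 12.3% of all genes. With only the 6 libraries in the fit 12 rose, and 3 rose without the E11 library a or c or the E11.5 library c. Rbfox3, a marker of mature neurons, went from 16.4 ± 0.69 to 33.4 ± 3.4 CPM (1.03 ± 0.12, adjusted p = 2.96e-07) and Syt1, of synaptic vesicles, rose at 0.58 ± 0.14, adjusted p = 0.00254. Gap43, Ina and Snap25 were the others that rose, whereas the neurofilament genes Nefl (-0.65 ± 0.10, adjusted p = 9.32e-06) and Nefm (-0.58 ± 0.07, adjusted p = 7.7e-07) fell.

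Other large rises were of genes known from the brain and its coverings or from moving cilia. Which cells they came from was not tested. Bcan, a proteoglycan of brain matrix, stood at 1.39, 1.39 and 1.84 CPM at E11 and 21.2, 22.2 and 19.8 at E11.5, with all E11.5 libraries well above E11 (3.77 ± 0.28, adjusted p = 2.08e-11). Ptgds, the prostaglandin D synthase of meninges and choroid plexus, was at 0.0514, 0.277 and 0.105 CPM at E11 and 9.31, 9.07 and 7.79 at E11.5, from 8 counts at E11 to 489 (5.87 ± 0.40, adjusted p = 3.43e-12). Ppp1r1b, a signalling protein of neurons, rose at 3.21 ± 0.38, adjusted p = 2.11e-07. Aldoc, the brain form of aldolase, rose from 11.3 ± 0.84 to 100.3 ± 1.6 CPM (3.15 ± 0.12, adjusted p = 1.08e-17). Cfap65 (3.43 ± 0.26, adjusted p = 2.09e-11) and Dnah6 (3.199 ± 0.40, adjusted p = 4.15e-07), genes of the moving cilium, are also in that set of 12.

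Eye and lens genes fell as a group, 10 of 12 with 0 rising, against 12.3% and 10.7% of all genes. Their median was -1.79. Besides the crystallins, Foxe3, a factor of the lens, had 14 counts at E11 and 0 at E11.5, at least 4.64-fold lower with E11.5 set to 3 counts over the group. Aldh1a1, an enzyme that makes retinoic acid in the dorsal retina, fell from 47.5 ± 4.2 to 0.575 ± 0.37 CPM (-6.32 ± 0.22, adjusted p = 9e-19).

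Among 7 melanocyte genes 2 rose and 3 fell, against 10.7% and 12.3% of all genes. Tyr, tyrosinase, stood at 3.75, 3.66 and 3.79 CPM at E11 and 0.463, 0.807 and 0.895 at E11.5, lower in each E11.5 library (-2.35 ± 0.24, adjusted p = 6.45e-08). Pmel, of the pigment granule, fell from 19.5 ± 1.3 to 4.59 ± 0.28 (-2.09 ± 0.19, adjusted p = 1.53e-09) and Tyrp1 at -2.18 ± 0.47, adjusted p = 0.000904. Kit, the receptor of melanoblasts and other cells, rose instead (0.68 ± 0.09, adjusted p = 2.46e-06), as did Dct (0.52 ± 0.17, adjusted p = 0.0218), which lost its call without the E11 library a or b or the E11.5 library a or c, while Mitf (0.20 ± 0.18, adjusted p = 0.474) and Mlana (-0.75 ± 0.95, adjusted p = 0.629) did not pass. Trpm1, a channel of pigment cells and retina, was among the 12 largest falls (-3.30 ± 0.19, adjusted p = 9.67e-14). Pkhd1l1, which encodes a large membrane protein, was another, at 14.9, 15.3 and 14.6 CPM at E11 and 0.752, 0.857 and 0.632 at E11.5 (-4.31 ± 0.24, adjusted p = 4.17e-14). Eye and lens genes together summed to 286 to 298 CPM at E11 and 164 to 169 at E11.5. The part of eye tissue in these falls was not tested.

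Transcription factors of cranial mesenchyme fell in 14 of 21 cases and rose in 0 (median -0.45), against 12.3% and 10.7% of all genes. Alx1, of frontonasal mesenchyme, stood at 30.1, 30.6 and 29.6 CPM at E11 and 14.8, 14.2 and 13.6 at E11.5. Its E11.5 libraries were all lower (-1.08 ± 0.12, adjusted p = 7.96e-08). Msx2, which acts in skull vault growth, was at 10.9, 13.98 and 14.6 CPM at E11 and 7.46, 6.65 and 4.47 at E11.5 and fell without overlap (-1.09 ± 0.17, adjusted p = 2.09e-05). The AP-2 genes Tfap2a (-1.23 ± 0.15, adjusted p = 2.07e-07) and Tfap2b (-0.97 ± 0.13, adjusted p = 1.88e-06) fell too. Thus early factors of the mesenchyme fell while Sp7 and matrix genes rose.

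Genes of early embryonic growth were lower. In the oncofetal list, genes active in embryos and silent in most adult tissue, 8 of 10 fell and 0 rose (median -0.95). Of all genes, 12.3% fell and 10.7% rose. Lin28a, which binds RNA and keeps let-7 microRNAs from maturing, stood at 4.78, 4.44 and 5.32 CPM at E11 and 0.289, 0.706 and 0.474 at E11.5. All E11.5 libraries lay below E11 (-3.26 ± 0.25, adjusted p = 3.05e-11). Lin28b, its paralog, was at 36.6, 36.9 and 39.0 CPM at E11 and 19.2, 16.6 and 16.4 at E11.5 (-1.11 ± 0.10, adjusted p = 4.41e-10). Trim71 (-2.14 ± 0.17, adjusted p = 1.23e-10), Hmga2, a chromatin protein of embryonic cells (-1.78 ± 0.11, adjusted p = 8.44e-13), and Sall4 (-1.47 ± 0.17, adjusted p = 8.65e-08) fell with them.

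Of 20 proliferation genes 19 fell and 0 rose (median -0.58), against 12.3% and 10.7% of all genes. The falls numbered 17 with totals alone, 16 without the E11.5 library c and 20 with only the 6 libraries in the fit. Mcm2, a subunit of the replication helicase, stood at 289.6, 318 and 295 CPM at E11 and 184, 179.9 and 196 at E11.5. Each E11.5 library was lower (-0.69 ± 0.12, adjusted p = 9.89e-05). Cdc6, which loads that helicase, fell at -0.86 ± 0.07, adjusted p = 3.17e-10, Mcm3 at -0.65 ± 0.07, adjusted p = 3.81e-08 and Rrm2, of nucleotide synthesis, at -0.67 ± 0.06, adjusted p = 4.45e-10. No member changed by 2-fold. The member that did not pass was Cdk1 (-0.31 ± 0.13, adjusted p = 0.0914), named after its value was seen.

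Hedgehog and retinoic acid genes fell more often than not. Among 11 hedgehog genes 7 fell and 1 rose (median -0.59), against 12.3% and 10.7% of all genes, and 5 fell with totals alone. Shh, the ligand, stood at 18.2, 22.8 and 21.5 CPM at E11 and 5.61, 5.19 and 4.79 at E11.5. The 3 libraries of E11.5 were lowest (-2.00 ± 0.14, adjusted p = 3.91e-12). Ptch1, its receptor and target, was at 150.2, 149 and 145 CPM at E11 and 76.3, 71.7 and 71.7 at E11.5 (-1.01 ± 0.17, adjusted p = 3.01e-05), and the targets Gli1 (-0.88 ± 0.12, adjusted p = 2.64e-06) and Hhip (-1.26 ± 0.20, adjusted p = 2.64e-05) fell as well. Cdon, a co-receptor and the member that rose, was named after its value was seen (0.73 ± 0.12, adjusted p = 5.51e-05).

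Of 15 retinoic acid genes 7 fell and 2 rose (median -0.31), against 12.3% and 10.7% of all genes. Aldh1a1, above, fell most, followed by the degrading enzymes Cyp26c1 (-2.25 ± 0.35, adjusted p = 1.76e-05) and Cyp26a1 (-2.23 ± 0.31, adjusted p = 2.97e-06). Crabp2, a binding protein for retinoic acid, stood at 121, 127 and 129 CPM at E11 and 52.9, 55.2 and 57.3 at E11.5 and fell in all E11.5 libraries (-1.19 ± 0.16, adjusted p = 1.72e-06). The 2 that rose, Aldh1a2 (0.44 ± 0.11, adjusted p = 0.00327) and Rdh10 (0.72 ± 0.09, adjusted p = 3.12e-07), make retinoic acid and were named after their values were seen. Enzymes of synthesis therefore moved in both directions.

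WNT, BMP, FGF and IGF lists had no common direction. Of all genes tested, 10.7% rose and 12.3% fell. Of 15 WNT genes 1 rose, the nuclear factor Tcf7 (0.42 ± 0.13), and 4 fell: the antagonists Dkk1 (-1.11 ± 0.19), Dkk2 (-0.56 ± 0.08) and Frzb (-0.49 ± 0.12) and Lef1, a partner of beta-catenin (-0.59 ± 0.09). The call of Tcf7 was lost without the library c of either stage. Of 14 BMP genes 4 rose and 4 fell, but 2 rose and 2 fell without the E11 library c or the E11.5 library a, and 2 fell without the E11.5 library b or with totals alone. The calls included Id3, a BMP target, at 127, 139 and 140.3 CPM at E11 and 67.6, 71.6 and 71.9 at E11.5 and lower in all E11.5 libraries (-0.94 ± 0.16, adjusted p = 6.06e-05). Id1 (-0.58 ± 0.18) and the pseudoreceptor Bambi (-0.44 ± 0.14) also fell, with Id2, and the ligands Bmp5 (0.70 ± 0.19) and Bmp7 rose, with Bmper and Id4. Of 14 FGF genes 2 rose, Fgfr4 (1.39 ± 0.32) and the feedback inhibitor Spry4 (0.77 ± 0.15), and 3 fell, the ligand Fgf8 (-0.93 ± 0.29) and the targets Etv4 (-0.50 ± 0.12) and Dusp6 (-0.49 ± 0.08). Of 10 IGF genes 2 rose, the binding proteins Igfbp7 (0.72 ± 0.24) and Igfbp3 (0.54 ± 0.11), and 0 fell, and 1 rose without the E11 library a or c or the E11.5 library a or b. The medians of these lists, from -0.10 to -0.01, were above 0 when libraries were scaled by totals.

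Of 11 genes of citrate, the subject of the series title, 1 rose and 4 fell (median -0.11), against 10.7% and 12.3% of all genes. No fall went beyond -0.37. Slc13a5, the citrate importer of the cell membrane, stood at 0.462, 0.277 and 0.211 CPM at E11 and 1.33, 1.36 and 0.790 at E11.5. It was higher in every E11.5 library, from 18 counts at E11 to 65 (1.84 ± 0.44, adjusted p = 0.00221). Cs, citrate synthase, was at 228, 238 and 232 CPM at E11 and 179, 177 and 184 at E11.5 and fell (-0.37 ± 0.07, adjusted p = 0.0001), and with totals alone it came to -0.25 at an adjusted p of 0.0504. Acly, which cleaves citrate, was at 502, 534 and 497 CPM at E11 and 397, 394 and 424 at E11.5 and passed barely (-0.34 ± 0.12, adjusted p = 0.0496), and it lost the call under 11 alternatives, with adjusted p-values from 0.0579 to 0.377. The dehydrogenase gene Idh1 fell at -0.31 ± 0.08, adjusted p = 0.00331 and the aconitase gene Aco1 at -0.25 ± 0.08, adjusted p = 0.027, and Slc25a1, the mitochondrial citrate carrier, did not pass (-0.08 ± 0.13, adjusted p = 0.721). With totals alone 1 gene of the list fell, and 2 fell without any single library other than E11.5 b.

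Of 18 glycolysis genes 9 fell and 1 rose (median -0.24), against 12.3% and 10.7% of all genes. The falls numbered 4 with totals alone and 5 without the E11.5 library a. Slc16a3, a lactate exporter, stood at 23.5, 27.7 and 30.2 CPM at E11 and 13.48, 12.6 and 13.9 at E11.5 and was lower in all E11.5 libraries (-1.03 ± 0.11, adjusted p = 4.06e-08). Hk2 (-0.74 ± 0.11, adjusted p = 1.24e-05) and Pkm (-0.44 ± 0.09, adjusted p = 0.000663), which catalyse the first and the last step, fell, and Pfkp rose (0.71 ± 0.14, adjusted p = 0.000329). In the list of 20 extracellular vesicle genes 1 rose, the tetraspanin Cd9 (0.46 ± 0.10, adjusted p = 0.00139), and 1 fell, the adaptor Sdcbp (-0.33 ± 0.07, adjusted p = 0.00133). Of all genes, 10.7% rose and 12.3% fell. With totals alone 5 of the 20 vesicle genes rose. Among 13 genes of the mitochondrial genome 0 passed in edgeR's quasi-likelihood test and 0 in DESeq2's, with 0 at an unadjusted p under 0.05 in the former, and 2 rose with only the 6 libraries in the fit. Of 35 ribosomal protein genes 1 fell, Rpl27 (-0.38 ± 0.14, adjusted p = 0.0449), a call lost under 11 alternatives with adjusted p-values from 0.0510 to 0.142, among them each single library left out. By contrast 25 fell with only the 6 libraries in the fit and 26 without the E12 and E13.5 libraries.

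The last lists mark tissues that a head dissection might or might not hold. Their counts stand beside 10.7% of all genes that rose and 12.3% that fell. Of 11 Hox genes tested 5 rose and 0 fell, none above 0.868 CPM in any of the 6 libraries. Hoxa5 had 0 counts at E11 and 16 at E11.5, at least 5.37-fold higher with E11 set to 3 counts over the group. Hoxd3 had 1 and 33 counts, a ratio of 33.2 (95% interval 5.56 to 1351), and Hoxd4 3 and 42, a ratio of 14.1 (95% interval 4.50 to 71.1). Hoxa3 (2.09 ± 0.69, adjusted p = 0.0281) and Hoxd9 (2.05 ± 0.59, adjusted p = 0.0159) were the others. Hox genes are known as markers of hindbrain and trunk and not of forebrain or frontal mesenchyme. With only the 6 libraries in the fit 2 Hox genes had counts enough to be tested, of which 1 rose, and 3 of the 11 rose without the E11.5 library b. Which cells these counts came from was not tested. In the heart list Myh7 (0.82 ± 0.25) and Tnnt2 (0.98 ± 0.33), both also of skeletal muscle, rose and Tbx5 fell (-2.68 ± 0.72). Myh7 lost its call without the E11 library b or c or the E11.5 library b, and Tnnt2 without the E11 library b or c or the E11.5 library a or c. Nppa and Nkx2-5 had too few counts to be tested. Of 7 pituitary and oral genes 3 fell, Isl1 among them (-0.28 ± 0.09, adjusted p = 0.0265), and 1 of the 3, not Isl1, passed under DESeq2's size factors and without the E11 library a or c or the E11.5 library a or c. Pomc (0.49 ± 0.27, adjusted p = 0.196), Lhx3 (0.08 ± 0.29, adjusted p = 0.879), Pitx1 (-0.14 ± 0.18, adjusted p = 0.639) and Hesx1, an early pituitary factor whose E11 to E11.5 ratio was 3.97 (95% interval 1.07 to 21.9), did not pass. Sox10 fell (-0.52 ± 0.15, adjusted p = 0.0108) as the single call among 8 Schwann precursor genes, lost without the E11 library b or the E11.5 library a or c. Of 11 immediate early and heat shock genes Egr1 rose (1.11 ± 0.20, adjusted p = 0.000129) and Dnajb1 (-0.53 ± 0.08, adjusted p = 1.67e-05) and Hspa1b (-0.56 ± 0.18, adjusted p = 0.0251) fell, the last not without the E11 library c or the E11.5 library a or b.

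How far E11.5 lay from the other labels was read from the same fit. These comparisons share the E11.5 or the E11 libraries and are set side by side only. E11.5 had its fewest calls against E11 (4613 genes, 23%), then against E12.5 (5525, 27.5%). Shares of the tested genes were 51.3% against E14.5, 51.9% against E10, 53.3% against E13.5 (10707), 54.6% against E10.5, 63.4% against E9.5, 67.9% against E9, 68.8% against E12 (13816) and 72.1% against E8.5. E11 had its fewest against E12.5, with 2716 genes (13.53%), fewer than against E11.5. Its shares against the others were 31.8% for E10, 36.5% for E10.5, 52.9% for E9.5, 56.4% for E13.5, 56.9% for E14.5, 59.9% for E9, 64.1% for E12 and 65.5% for E8.5. The libraries with the next later label were therefore not the nearest to E11 by this count.

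**Figure D3:**
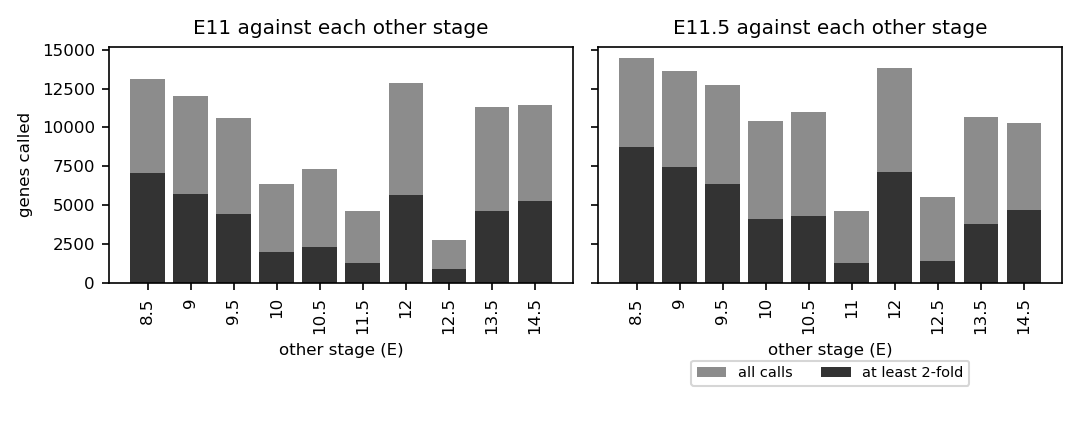
Number of genes called at an adjusted p under 0.05 (grey) and those of at least 2-fold (black) when E11 (left) or E11.5 (right) is set against each other labelled stage. E11 has its lowest bar against E12.5 and E11.5 its lowest against E11.

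Genes that change over the series outside these 6 libraries gave another reading. Between E10.5 and E13.5, 3730 genes (18.6%) rose at least 2-fold and 1888 (9.41%) fell. From E11 to E11.5, 39.6% of the former were higher and 1.23% lower (median log2 fold change 0.58), and 36.7% of the latter were lower and 1.11% higher (median -0.37). Each library was then placed by the median percent of the way from E10.5 (0) to E13.5 (100) on the log2 scale. The E13.5 end was not uniform: ribosomal protein genes took 5.62% of counts in its library c, against 3.39% in a and 3.38% in b. For 3614 of the genes that rose, the E11 libraries stood at 37.6% ± 0.76 and those of E11.5 at 64.8% ± 0.95, while E12 was at 47.0% ± 1.8 and E12.5 at 44.6% ± 1.3. No library of E12 or E12.5 reached one of E11.5.

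For 1835 genes that fell, the order differed. E11 stood at 24.5% ± 0.89, E11.5 at 50.2% ± 1.1 and E12.5 at 31.2% ± 2.8, but E12 at 76.9% ± 14.2, with its 3 libraries far apart. Of the E13.5 libraries that set the end, a and b stood at 91.8% and 93.4% and c at 113%. With E14.5 in place of E13.5 as the later end, chosen after the data were seen, E11.5 lay ahead of E12 in both sets: 49.8% ± 0.82 against 28.1% ± 2.1 for rises and 48.7% ± 0.24 against 27.2% ± 5.4 for falls. E12.5 lay behind E11.5 in both sets at both ends.

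**Figure D4:**
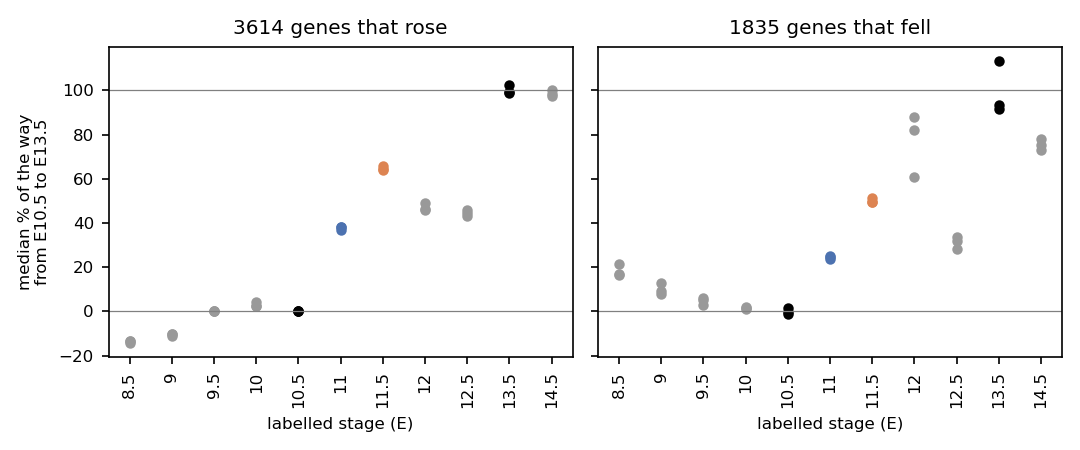
Median percent of the way from the E10.5 mean to the E13.5 mean on the log2 scale in each of the 33 libraries, for 3614 genes that rose (left) and 1835 that fell (right) between those stages. Points are single libraries, with E10.5 and E13.5 in black, E11 in blue, E11.5 in orange and other stages in grey. In the left panel the E11.5 libraries lie above all those of E12 and E12.5, and in the right panel E12 lies above E11.5.

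Ibsp, Matn1 and Bcan, among the genes chosen for their rise, are given at the later labels. Ibsp was 15.1 CPM at E11.5 but 0.0370 ± 0.064 at E12 and 0.204 ± 0.078 at E12.5, before 67.9 ± 2.7 at E13.5. Matn1 stood at 0.219 ± 0.15 and 0.625 ± 0.28 at E12 and E12.5 and 12.9 ± 3.3 at E13.5, where the difference from E11.5 did not pass (E11.5 minus E13.5, 0.07 ± 0.21, adjusted p = 0.79). Bcan stood at 1.37 ± 0.22 and 2.88 ± 0.81 CPM at E12 and E12.5 and at 18.4 ± 4.6 at E13.5 (E11.5 minus E13.5, 0.20 ± 0.23, adjusted p = 0.478).

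Ttr and Neurod6 were likewise chosen for their rise. Ttr was at 168 ± 64.9 CPM at E12 and 179.7 ± 6.9 at E12.5, below its 466 ± 6.3 at E11.5 (E11.5 minus E12.5, 1.38 ± 0.18, adjusted p = 1.32e-06). Neurod6 stood at 26.0 ± 0.97 and 39.7 ± 3.5 against 113 ± 6.2 (E11.5 minus E12.5, 1.51 ± 0.13, adjusted p = 9.26e-10). Emx1 was instead higher at E12 (97.6 ± 15.2) and E12.5 (85.5 ± 6.3) than at E11.5 (60.6 ± 3.6), with an E11.5 minus E12.5 log2 fold change of -0.50 ± 0.13, adjusted p = 0.00507.

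Falling genes came back at E12 in several cases. Cryaa returned to 21.4 ± 6.1 CPM at E12 and was at 0 in all E12.5 libraries, and Cryba1 was at 19.04 ± 6.4 and 0.0569 ± 0.059. Lens RNA was thus present at E11 and E12 and next to absent at E11.5, E12.5, E13.5 and E14.5. En2 stood at 15.3 ± 2.5 at E12 and 0.0692 ± 0.12 at E12.5. Hbb-bh1 was at 940.0 ± 392 CPM at E12 and 165 ± 3.4 at E12.5, both above E11.5, and its ratio to Hbb-y was 0.0688 ± 0.010 and 0.0580 ± 0.0053, both above that of E11.5. Embryonic age, the edges of the dissection and the makeup of the libraries cannot be told apart in these labels.

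**Figure D5:**
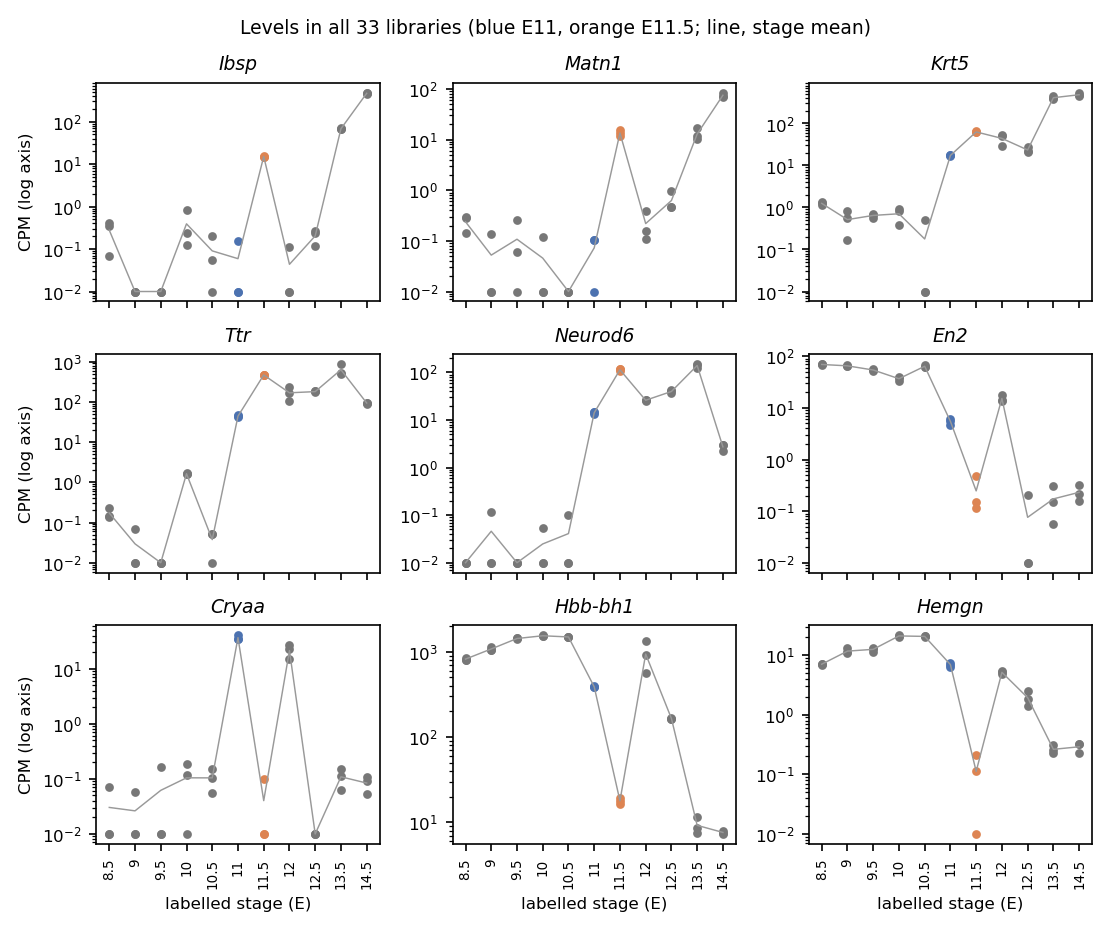
CPM of 9 genes in all 33 libraries by labelled stage on a log axis, with 0 drawn at 0.01, E11 in blue, E11.5 in orange, other stages in grey and a line through the stage means. Ibsp, Matn1 and Neurod6 peak at E11.5 relative to E12 and E12.5, and Cryaa, En2 and Hbb-bh1 dip there relative to E12.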

How the data were processed

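RNA of 33 libraries was counted per gene. The deposited table holds whole-number counts per Ensembl gene, not normalized, per the file headers. The submitters' processing notes name cutadapt 1.9.1, HISAT2 2.0.1, HTSeq 0.6.1 and GRCm38. For the strand setting and the annotation release, nothing is given in the sources used here, so that overlapping and antisense genes cannot be told apart. Gene names and spans are from GENCODE M21 (55141 of 55401 identifiers matched) and promoters from RefSeq on GRCm38.p6.

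The counts were analysed in R 4.3.3 with edgeR 4.0.16: filterByExpr with stage as group kept 20073 genes, holding 99.9% to 99.96% of each library's counts. TMM factors (0.797 to 1.18) were applied, and a quasi-likelihood model with a mean for each stage over all 33 libraries gave E11.5 minus E11 with 22 residual degrees of freedom. A gene rose or fell at a Benjamini-Hochberg adjusted p under 0.05 over all genes tested. All libraries entered the fit so that they share an estimate of the spread. Standard errors were derived from the fold change and the F statistic and are approximate. On simulated counts of 19095 genes, 41.8%, 65.7% and 90.9% of genes changed 1.5-, 2- and 4-fold were called, with 8 false calls. Only 67, 67 and 66 genes were changed there, at E11.5 alone, and the other genes had the same mean at every stage. The simulated spread was set by a gene's mean level alone. In the data 23% of genes were called, so these rates need not hold for the comparison. Totals of all libraries ran from 14516518 to 19964404. Intervals of ratios (95%) and the floor of 3 counts cover counting error only.

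The members and the 40 gene lists were chosen with earlier results of these data known. Named genes were the 12 largest rises and falls among non-overlapping calls that reach 5 CPM on average at one of the stages, the 4 passing members of each list with the largest change (all members of lists of up to 8), and a fixed set (Runx2, Sp7, Alpl, Ibsp, Spp1, Bglap, Dmp1, Phex, Col1a1, Slc13a5, Cs, Acly, Slc25a1, Hbb-bh1, Hbb-y, Lin28a and Lin28b). Some genes that meet this rule are not reported here. Any other gene was chosen after its values were seen, including members named to complete a count of 5 or fewer. No columns were identical. Column letters could not be matched with replicate numbers. Alternatives were DESeq2 1.42.0, its size factors, totals alone, other filters, a block for the column letter, only the 6 libraries, no E12 and E13.5 libraries, a length trend and leaving out each library. The E14.5 end point and other scalings for genes classed by outside libraries were added after the data were seen.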

Additional observations from a re-analysis of the deposited data

How the results depend on the processing

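No gene called both in the main fit and in an alternative had the opposite sign there. The sign of calls that an alternative lost was not counted. Of the 4613 main calls, totals alone kept 3389 and a filter of 5 CPM in 3 libraries kept 3309. Against 2154 higher and 2459 lower (46.7% of calls higher), DESeq2's size factors gave 2489 and 1787 (58.2%), totals alone 2799 and 1235 (69.4%), no filter 2219 and 1682 (56.9%), a filter of 5 CPM in 3 libraries 2282 and 1578 (59.1%) and DESeq2's own test 2679 and 1991 (57.4%). Removing a gene length trend gave 2390 and 3259. The 6 libraries alone gave 3985 and 3735, and leaving out the E12 and E13.5 libraries gave 3547 and 4076, of which 4593 in all were among the 4613 main calls. Leaving out 1 library gave 1685 to 1788 higher and 1843 to 2000 lower. For E11.5 against other stages, leaving out 1 of its libraries gave 13892 to 13971 calls against E8.5, 12964 to 13043 against E9, 11986 to 12059 against E9.5, 9510 to 9541 against E10, 9997 to 10071 against E10.5, 13172 to 13287 against E12, 4470 to 4547 against E12.5, 9398 to 9598 against E13.5 and 9332 to 9475 against E14.5. Genes that rose from E10.5 to E13.5 were higher at E11.5 in 44.4% of cases with totals alone and 41.8% with DESeq2's size factors, and those that fell were lower in 28.5% and 33.3%.

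The block for the column letter gave 2072 higher and 2342 lower. Same-lettered libraries did not deviate together (r 0.0073, -0.013 and -0.014 for a, b and c), so that the letter is no evidence of pairing.

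Spp1 came to 0.79 (adjusted p = 0.0526 in edgeR's test) without the E11 library b. Calls of these other named genes were lost under at least 1 alternative: Acly, Aco1, Acta2, Bambi, Bmp5, Bmper, Cd68, Cs, Dct, Egfl7, Esam, Fgf8, Foxe3, Gap43, Hoxa3, Hoxd9, Hspa1b, Id1, Id2, Id4, Idh1, Igfbp7, Ina, Isl1, Kcnj8, Kdm5d, Krtdap, Lhx2, Lyz2, Mrc1, Myh11, Myh3, Myh7, Rpl27, Sdcbp, Snap25, Snorc, Sox10, Tcf7, Thbs4, Tnnt2, Uty and Xist. Cause was not tested. With 3 libraries a stage, changes of 1.5-fold were called less completely than larger ones in the simulation. Genes under about 1 CPM rest on few counts.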

Other observations

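The following genes were picked after their values were seen and are given as descriptions. Besides Cfap65 and Dnah6, further genes of the moving cilium were higher at E11.5. Ak7 stood at 0.822, 1.55 and 0.737 CPM at E11 and 5.90, 6.81 and 7.05 at E11.5, Vwa3a at 0.873, 1.22 and 0.947 and 3.70, 6.35 and 6.63 and Spef2 at 0.976, 0.721 and 1.11 and 6.48, 4.34 and 4.47 in the same order. Foxj1, the factor that turns on this programme, changed by less, at 12.9, 15.6 and 19.002 CPM at E11 and 28.5, 29.4 and 31.1 at E11.5. Dnah5 (0.06 ± 0.35) and Ccdc39 (0.48 ± 0.21), which belong to the same structure, did not pass. At E12 the stage means were 1.68 CPM for Ak7, 1.02 for Vwa3a and 1.38 for Spef2, below those of E11.5, whereas Foxj1 was at 29.5.

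Slc6a13, a GABA and taurine transporter of meninges, stood at 2.62, 3.22 and 3.68 CPM at E11 and 20.8, 17.1 and 19.4 at E11.5, and Slc22a6, an organic anion transporter, at 2.41, 2.22 and 3.32 CPM at E11 and 14.1, 13.7 and 15.5 at E11.5. Their E12.5 means were 3.83 and 3.52 CPM and their E13.5 means 23.3 and 20.6. In the choroid plexus gene Htr2c, a serotonin receptor, E11 and E11.5 were at 1.99 and 14.2 CPM.

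Factors of dorsal and midbrain neural tissue were lower at E11.5 beside En2 and Pax5. Tal2 stood at 50.7, 43.8 and 47.6 CPM at E11 and 7.52, 7.66 and 6.37 at E11.5, Dbx1 at 37.7, 40.9 and 41.4 and 9.66, 9.38 and 8.53 and Pax3 at 17.8, 15.04 and 17.9 and 4.98, 2.92 and 4.90. At E12 the means of Dbx1 and Pax3 were 35.8 and 11.01 CPM and at E12.5 5.24 and 6.97. Neurod2, a factor of cortical neurons, ran the other way, with 12.53, 16.8 and 14.9 CPM at E11 and 82.1, 89.8 and 85.7 at E11.5.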
